A study of Homo sapiens with 18 samples.

Results

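miRNAs numbered 3000 and above are late entries of the human catalogue, because numbers are given in order of registration. The members described here were chosen by their measured levels: rows of the small RNA table with such a number whose deposited log2 level reached log2 of 10 in at least 3 of the 9 libraries. This rule kept 117 of 1182 rows numbered 3000 or more, or 9.9%, from a table of 2167 rows. The same rule kept 381 of 803 rows numbered below 1000, or 47.4%, and 567 rows in all. Because levels chose the members, the levels below are a description.

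The cells were HCT116, a human colorectal carcinoma line, wild type and without any treatment in every group. They were grown in wells for 3, 5 or 7 days, which the labels give as 50%, 250% and 400% confluency, so that later days were also denser and day and density cannot be told apart. Each day had 3 biological replicates of small RNA sequencing on whole cell RNA, and days 3 and 5 had 3 whole transcriptome libraries each. One cell line limits every group to that line, and p-values measure the spread between cultures of it.

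Most miRNAs are cut from hairpins by DROSHA in the nucleus and DICER1 in the cytoplasm, and the surviving strand guides Argonaute to messages that pair with its seed, bases 2 to 8. Some hairpins are short introns that leave the spliceosome as a lariat and are opened by the debranching enzyme DBR1. Many late entries were registered from sequencing alone, and some of them share their letters with ribosomal, transfer or small nucleolar RNA.

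Of the 117 members, 99 had a mature sequence in RefSeq on GRCh38.p14. The others were miR-10395-3p, miR-3143, miR-3150a-5p, miR-3195, miR-3609, miR-3667-3p, miR-3960, miR-4286, miR-4472, miR-4659a-3p, miR-4661-3p, miR-4661-5p, miR-4662a-5p, miR-4664-3p, miR-5001-3p, miR-6850-3p, miR-7705 and miR-9903. Sequences are written 5′ to 3′ with the seed in capitals. The first set is shown because its members carried the largest falls between days 3 and 7, and most of it is rich in G and C.
miR-6743-5p: aAGGGGCAgggacggguggccc
miR-10396b-3p: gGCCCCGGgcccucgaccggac
miR-4632-3p: uGCCGCCCucucgcugcucuag
miR-4787-5p: gCGGGGGUggcggcggcauccc
miR-4739: aAGGGAGGaggagcggaggggcccu
miR-6089: gGAGGCCGggguggggcggggcgg
miR-4634: cGGCGCGAccggcccgggg
miR-4485-3p: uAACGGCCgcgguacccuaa

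The second set is shown because it held most of the largest rises. Their seeds differed from each other and from those of the first set.
miR-3617-5p: aAAGACAUaguugcaagauggg
miR-4697-3p: uGUCAGUGacuccugccccuuggu
miR-3605-3p: cCUCCGUGuuaccuguccucuag
miR-9985: uUCACAGUggcuaagcuau
miR-4787-3p: gAUGCGCCgcccacugccccgcgc
miR-3158-3p: aAGGGCUUccucucugcaggac

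The third set is shown because its levels could not be separated from those of another row. miR-3184-3p is the exact reverse complement of miR-423-5p over 23 bases, and miR-3529-3p that of miR-7-5p over 24 bases.
miR-3184-3p: aAAGUCUCgcucucugccccuca
miR-423-5p: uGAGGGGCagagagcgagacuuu
miR-3529-3p: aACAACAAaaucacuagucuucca
miR-7-5p: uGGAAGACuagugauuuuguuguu
miR-4447: gGUGGGGGcuguuguuu
miR-4483: gGGGUGGUcuguuguug

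Back-transformed from log2 and summed, the members held between 1.1% and 1.89% of the summed level of all rows in a library. The share was 1.72%, 1.59% and 1.89% in the day 3 libraries, 1.68%, 1.71% and 1.55% on day 5, and 1.33%, 1.1% and 1.12% on day 7. All 3 day 7 libraries lay below all 6 earlier ones, while days 3 and 5 overlapped. The members' summed level averaged 30733, 29449 and 29741 on days 3, 5 and 7. The sum of all rows was higher in each day 7 library than in any earlier one. On the deposited scale the members' sums overlapped between days, so the lower share went with the higher sum of all rows. The members' sums include miR-3184-3p, whose values were those of miR-423-5p and rose by 0.832 (log2) from day 3 to day 7. The sum of the other members was not computed. Scaled to library totals, the members' sum moves as the share does. Rows numbered below 1000 held 86.6% to 88.5% of the sum in every library. The median of the mean log2 levels was 4.42 for the members and 7.06 for rows numbered below 1000, which were kept by the same threshold.

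A total of 79 members reached the level in all 9 libraries and 38 in 3 to 8 of them. miR-10396b-3p, miR-3195, miR-4739 and miR-6743-5p passed through day 3 alone, and miR-3605-5p, miR-3617-5p, miR-4697-3p and miR-7705 through day 7 alone, so these 8 had to differ between days, and their differences from or to that day are given below as a description, with no test. The members nearest the threshold were miR-4775, miR-5001-5p and miR-3617-5p, whose log2 levels in the library that decided, the lowest of their best 3, were 3.38, 3.39 and 3.40. Just outside lay miR-4707-5p at 3.30, miR-4745-5p at 3.30 and miR-5094 at 3.27.

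Replicates of a day varied more among the members than among rows numbered below 1000, with median within-day SDs of 0.21 and 0.14 on the log2 scale. The levels of both classes differed too, and within bands of level the SDs were nearer each other. They were 0.32 and 0.26 under a log2 level of 4, 0.21 and 0.18 between 4 and 6, and 0.11 and 0.12 from 6 upwards.

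The 10 members with the highest mean level held 79.7% of the summed level of all members. miR-3184-3p came first with a mean log2 level of 12.43, or 19.1% of the members' sum. Its 9 values were those of miR-423-5p, a conserved and abundant miRNA whose hairpin lies on the other strand of the same stretch of chromosome 17 (chr17:30117095-30117117). The largest difference between both rows was 0.000 in any library, so they were 1 measurement listed under 2 names. miR-3529-3p likewise carried the values of miR-7-5p in all 9 libraries.

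miR-4483 and miR-4447 had separate loci, on chromosomes 10 and 3, but never differed by more than 0.034 on the log2 scale. Their sequences, shown above, end in nearly the same letters. Both stayed between 10.29 and 10.86 in every library, and neither passed the test in any comparison. The day groups overlapped for both.

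**Figure D1:**
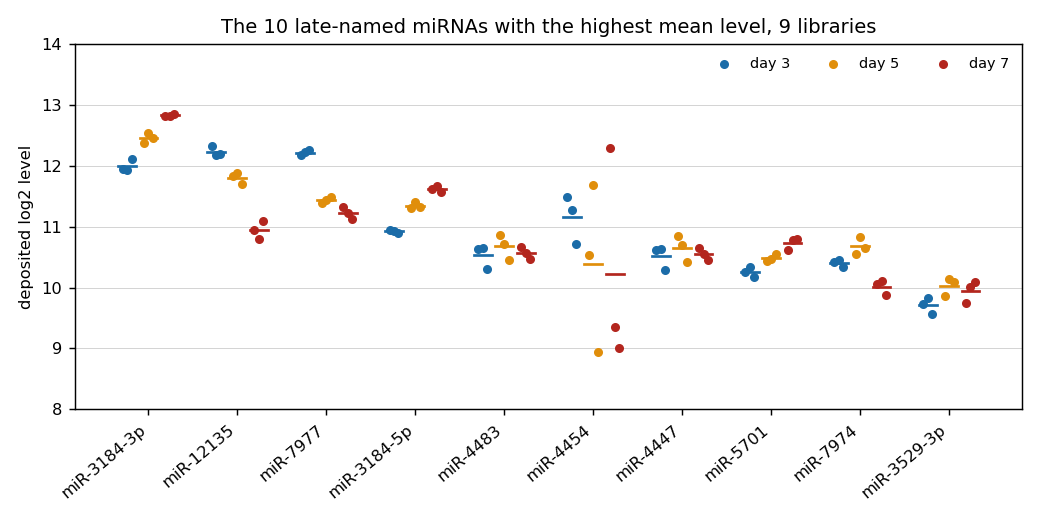
Deposited log2 level of the 10 late-named miRNAs with the highest mean, 1 point a library and a bar at each day's mean (n = 3 a day). miR-12135 and miR-7977 lay highest on day 3, while miR-4454 spread from 8.94 to 12.29 with no order of days.

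miR-12135, second by level, lies in an intron of NEO1, which encodes the netrin receptor neogenin (chr15:73299962-73299979, + strand). Its log2 levels were 12.32, 12.18 and 12.19 on day 3, 11.83, 11.88 and 11.70 on day 5, and 10.94, 10.80 and 11.09 on day 7. Every library of a later day lay below every library of an earlier one. From day 3 to day 7 it fell by 1.29 on the log2 scale (SE 0.10, limma adjusted p = 1.26e-05), or 2.44-fold.

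miR-7977, next by level, had log2 levels of 12.17, 12.22 and 12.26 on day 3, 11.39, 11.44 and 11.49 on day 5, and 11.32, 11.22 and 11.13 on day 7. The fall stood between days 3 and 5, with a difference of -0.77 (SE 0.08, limma adjusted p = 0.00018), while the step from day 5 to day 7 was -0.22 (limma adjusted p = 0.0564). miR-7974 lay at 10.42, 10.45 and 10.34 on day 3, 10.56, 10.82 and 10.65 on day 5, and 10.06, 10.11 and 9.88 on day 7. It was lowest on day 7 without overlap, and fell by 0.66 from day 5 (SE 0.10, limma adjusted p = 0.00114).

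miR-4454 was the least reproducible member, with a within-day SD of 1.33. Its log2 levels were 11.49, 11.27 and 10.72 on day 3, 10.53, 11.69 and 8.94 on day 5, and 12.29, 9.36 and 9.01 on day 7. Day 7 libraries stood more than 8-fold apart and day 3 libraries less than 2-fold, and no difference between days passed the test (limma adjusted p = 0.373 for day 7 against day 3).

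The day comparisons asked how the members moved as cultures grew dense. All rows were tested in 1 limma fit over the 9 libraries, and a row was called at an adjusted p under 0.05. The 3 comparisons share libraries, so their values are given side by side only. Between days 3 and 7, 35 members rose and 23 fell, while 59 did not pass. Of all rows 58.4% were called, 49.9% higher and 8.47% lower. For members these shares were 29.9% higher and 19.7% lower, and for rows numbered below 1000 they were 55.1% and 4.46%.

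The median difference was 0.12 for members, 0.34 for rows numbered below 1000 and 0.30 for all rows. The split of calls moved with the scale of the libraries. Scaling each library to its own total lowered the median of all rows by 0.50 and gave 11 members higher and 57 lower, or 48.7% lower, beside 80 and 161 rows numbered below 1000, or 42.3% lower. Centring on rows numbered below 1000 lowered it by 0.36 and gave 14 members higher and 44 lower, or 37.6% lower, beside 100 and 98 rows numbered below 1000, or 25.7% lower. On the deposited scale the falls of rows numbered below 1000 numbered 17, and 27 without replicate 3 of day 3. Without the 8 members that passed the level through 1 day, 31 rose and 19 fell of 109.

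On the deposited scale 16 rows fell at least 2-fold from day 3 to day 7, and each was a late-named member. They make up 2.82% of all rows and 13.7% of the members, and none of the 381 rows numbered below 1000 fell as far on that scale. On library totals 24 members and 7 rows numbered below 1000 fell at least 2-fold, and when centred 21 and 4. No row numbered below 1000 fell 8-fold on any of the 3 scales. Of the 16, 8 fell at least 8-fold. Both counts hold miR-3195, miR-6743-5p, miR-10396b-3p and miR-4739. As members through day 3 alone, these had to lie lower on day 7. At least 2-fold rises were seen for 6 of 117 members, 29 of 381 rows numbered below 1000 and 43 of all 567 rows. The 6 hold miR-3605-5p, miR-3617-5p, miR-4697-3p and miR-7705, members through day 7 alone, which had to lie higher on day 7.

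**Figure D2:**
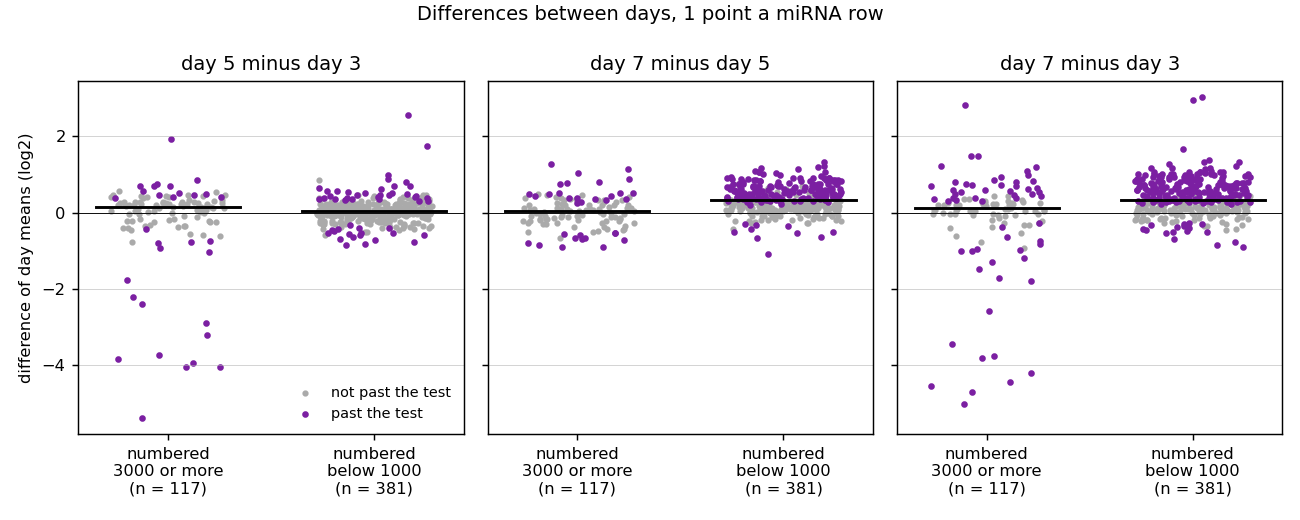
Difference of day means (log2) for the 117 late-named rows and the 381 rows numbered below 1000, 1 point a row, with purple for rows past the limma test and a bar at the median. Values are on the deposited scale, where the points below -2 are late-named rows, on day 5 and on day 7 against day 3, with none between days 5 and 7.

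Between days 3 and 5, 14 members rose and 17 fell, where the whole table had 11.1% called higher and 6.7% lower, or 17.8% in all. Without replicate 2 of day 5, 9 members rose. Without the 8 members that passed the level through 1 day, 13 rose and 13 fell of 109. Of rows numbered below 1000, 32 rose and 18 fell, but 15 rose without replicate 2 of day 5, 16 without replicate 3 and 20 without replicate 1, while 53 fell without replicate 3 of day 3 and 9 without replicate 1 of day 3 or replicate 3 of day 5. The libraries of both days did not overlap for 50 members, or 42.7%, and for 33.7% of all rows. A total of 12 members fell at least 2-fold and no row numbered below 1000 did, on each of the 3 scales. The 12 hold the 4 members through day 3 alone, which had to lie lower on day 5. The median difference was 0.14 for members and 0.04 for rows numbered below 1000.

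Between days 5 and 7, 21 members rose and 12 fell, against 39.3% called higher and 4.94% lower in the whole table, or 44.3% in all. The members that rose numbered 13 without replicate 1 of day 5 or replicate 2 of day 7. Without the 8 members that passed the level through 1 day, 17 rose and 11 fell of 109. Of rows numbered below 1000, 177 rose and 10 fell, and 16 fell without replicate 3 of day 3 and 6 without replicate 2 of day 5. The libraries did not overlap for 55 members, or 47%, and for 62.4% of all rows. No member fell 2-fold in this step on the deposited scale, and 1 row numbered below 1000 did, while on library totals 14 members and 4 such rows did. The median difference was 0.05 for members and 0.33 for rows numbered below 1000. Scaled to library totals, 4 members were higher and 58 lower, beside 55 and 149 rows numbered below 1000.

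The members with the largest falls were high in every day 3 library and low afterwards. miR-3195 had log2 levels of 6.01, 5.31 and 5.05 on day 3, between 0.05 and 0.06 on day 5, and 0.09, 0.13 and 1.03 on day 7. Both later days lay below 3.32, the log2 level that chose the members, and the day 3 libraries stood far above them. The lowest level of any row was between -2.641 and -2.625 in the 9 libraries. Day 7 minus day 3 was -5.04 on the log2 scale (SE 0.28) and day 5 minus day 3 was -5.40, in a row that is a member through day 3 alone.

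miR-6743-5p lies in an exon of RIC8A, which encodes a chaperone of G protein alpha subunits (chr11:209341-209362, + strand). Its levels were 7.17, 6.72 and 6.51 on day 3, 2.81, 2.13 and 3.29 on day 5, and 2.17, 1.76 and 2.28 on day 7. Days 5 and 7 overlapped, and day 3 was at least 3 log2 units above both. Day 7 minus day 3 was -4.72 (SE 0.28), also in a row that is a member through day 3 alone.

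miR-10396b-3p lies on chromosome 21 (chr21:8436353-8436374, + strand) in an intron of a long noncoding RNA known by its identifier, ENSG00000280441. It had levels of 7.25, 6.40 and 7.41 on day 3, 2.89, 2.78 and 3.24 on day 5, and 2.20, 2.89 and 2.33 on day 7. It is likewise a member through day 3 alone, and day 7 minus day 3 was -4.55 (SE 0.27). miR-4632-3p, in an intron of the TNF receptor gene TNFRSF1B (chr1:12191752-12191773, + strand), went from 7.69, 6.45 and 7.23 on day 3 to between 2.84 and 3.63 on day 5 and between 2.53 and 2.77 on day 7. Its level passed in 1 library beyond those of day 3, and day 7 minus day 3 was -4.46 (SE 0.29).

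miR-6089 and miR-4787-5p had the widest day 3 groups among these 8. miR-6089 was at 8.48, 8.22 and 6.50 on day 3, at 3.65, 3.76 and 4.56 on day 5, and at 4.39, 3.65 and 3.84 on day 7. Replicate 3 of day 3 was the lowest of its day for 5 of the 8 members and replicate 2 for the other 3. miR-4739 (chr17:79707216-79707240, - strand, in no annotated gene) went from 5.09, 4.40 and 4.26 through 1.95, 1.54 and 1.53 to 0.93, 0.99 and 0.36, and is a member through day 3 alone. From day 5 to day 7 it differed by -0.91 (SE 0.24, limma adjusted p = 0.0124), the only one of the 8 to pass the test in that step, where miR-6743-5p (-0.67), miR-4632-3p (-0.51) and miR-10396b-3p (-0.50) did not.

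Summed over the 8 members, the back-transformed level was 1447, 1022 and 824.6 in the day 3 libraries, 70.6, 58.9 and 104.7 on day 5, and 75.1, 59.4 and 53.9 on day 7. They made up 4.51%, 3.3% and 2.84% of the members' sum on day 3 and at most 0.382% later. The choice of the 8 fixed that day 3 lay above day 7, and days 5 and 7 overlapped.

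The other 8 members with falls of at least 2-fold were miR-4485-3p (-2.58), miR-3960 (-1.79), miR-7704 (-1.72), miR-6765-3p (-1.49), miR-12135 (-1.29), miR-4456 (-1.20), miR-5585-3p (-1.02) and miR-4451 (-1.01), given as day 7 minus day 3 on the log2 scale. Of all 16, 14 were already lower on day 5, and 3 fell further between days 5 and 7. Of all members the day 3 and day 7 libraries did not overlap for 64, or 54.7%. For each of the 16 the day 3 and day 7 libraries did not overlap, which was true of 64.9% of all rows.

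**Figure D3:**
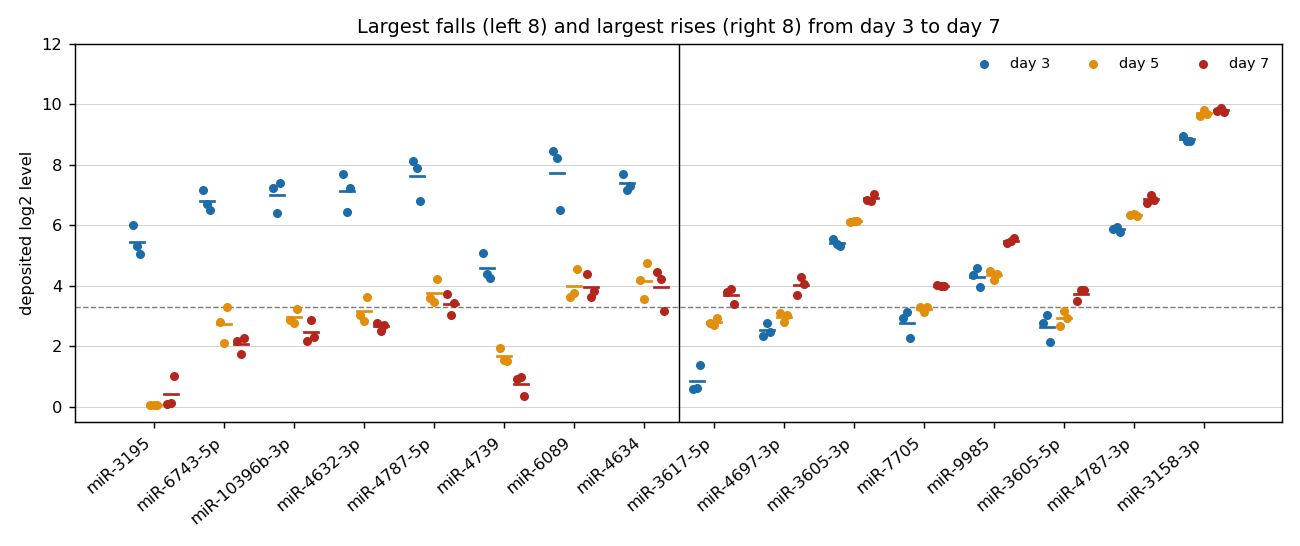
Deposited log2 level of the 8 members with the largest falls (left of the line) and the 8 with the largest rises (right) from day 3 to day 7, 1 point a library and a bar at each day's mean. The dashed line marks the level that chose the members, 3.32. On the left day 3 lies above both later days, and miR-4739 and miR-4632-3p are lower again on day 7 without overlap. The choice of the rows fixed the direction between days 3 and 7.

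The largest rise, 2.83 for miR-3617-5p, was smaller than the 8 largest falls. miR-3617-5p lies opposite an intron of WFDC13 (chr20:45705150-45705171, - strand). Its log2 levels were 0.58, 0.64 and 1.39 on day 3, 2.77, 2.71 and 2.95 on day 5, and 3.80, 3.89 and 3.40 on day 7. The 3 days did not overlap. Day 7 minus day 3 was 2.83 (SE 0.21), in a row that had to be high on day 7 to be a member.

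miR-3605-3p comes from an intron of PHC2, a Polycomb group gene (chr1:33332405-33332427, - strand). It stood at 5.55, 5.40 and 5.33 on day 3, 6.11, 6.14 and 6.15 on day 5, and 6.86, 6.80 and 7.05 on day 7, without overlap between any pair of days. It rose 2.78-fold to day 7 (difference 1.48, SE 0.10, limma adjusted p = 3.45e-06). The other arm, miR-3605-5p, was at 2.77, 3.04 and 2.14 on day 3 and at 3.52, 3.87 and 3.86 on day 7, a difference of 1.10 (SE 0.22) in a row that is a member through day 7 alone.

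miR-9985 shares its seed and its first 15 bases with miR-27a-3p and miR-27b-3p, which stood at mean log2 levels of 14.2 and 14.8 on day 3.
miR-9985: uUCACAGUggcuaagcuau
miR-27a-3p: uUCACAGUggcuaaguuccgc
miR-27b-3p: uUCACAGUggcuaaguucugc
miR-9985 itself was at 4.36, 4.58 and 3.96 on day 3, 4.48, 4.21 and 4.39 on day 5, and 5.42, 5.48 and 5.59 on day 7. Days 3 and 5 overlapped and day 7 lay above both. It rose by 1.19 from day 3 (SE 0.15, limma adjusted p = 0.000137), where miR-27a-3p rose by 0.71 and miR-27b-3p by 0.49, and reads of such near copies may be split between the rows.

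From day 3 to day 7, miR-4787-3p rose by 0.99 and miR-3158-3p by 0.95, with no overlap (limma adjusted p = 2.82e-05 and 4.08e-05). miR-4697-3p and miR-7705, members through day 7 alone, differed by 1.49 and 1.22. miR-3158-3p went from 8.97, 8.80 and 8.80 on day 3 to 9.61, 9.83 and 9.68 on day 5 and 9.77, 9.88 and 9.76 on day 7. Its rise stood between days 3 and 5 (0.85, SE 0.10, limma adjusted p = 0.00018), and days 5 and 7 overlapped.

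Some members had their highest mean on day 5. miR-3155a, from an intron of the glycolytic regulator PFKFB3 (chr10:6152247-6152267, + strand), had levels of 4.04, 3.99 and 4.49 on day 3, 4.77, 4.95 and 5.02 on day 5, and 4.37, 4.45 and 3.84 on day 7. It was highest on day 5, by 0.74 over day 3 (limma adjusted p = 0.0199), a call lost when replicate 1 or 2 of day 3 or replicate 2 or 3 of day 5 was left out, and by 0.69 over day 7 (limma adjusted p = 0.0126). It shares its seed, CAGGCUC, with miR-484. miR-3918 was 0.70 higher on day 5 than on day 3 (limma adjusted p = 0.0155), and that call was lost without replicate 2 of day 5. Its difference from day 5 to day 7, -0.43, did not pass (limma adjusted p = 0.0537).

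Falls between days 5 and 7 were small. Beside miR-12135 and miR-7974 they included miR-4448 (-0.71), miR-4523 (-0.81), miR-7851-3p (-0.90) and miR-4741 (-0.66). The call of miR-4741 was lost without replicate 1 of day 5 or replicate 2 or 3 of day 7, and that of miR-7851-3p without replicate 3 of day 5 or replicate 2 of day 7. miR-5683 rose in this step by 1.28 (SE 0.28, limma adjusted p = 0.00573), from 3.98, 3.33 and 2.71 on day 5 to 4.45, 4.72 and 4.69 on day 7.

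Both arms of a hairpin were members for 11 hairpins, or 22 members. Among them is miR-3184, whose 3p row carried the values of miR-423-5p, so its difference between arms may not be that of 1 hairpin. By day means the 3p arm was the higher one on all 3 days for 6 hairpins, miR-3184 included, and the 5p arm for 4. miR-4787 was the exception. Its hairpin lies in an exon of DOCK3, a guanine nucleotide exchange factor gene, with the 5p arm at chr3:50675093-50675114 and the 3p arm at chr3:50675130-50675153, + strand.

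The 5p arm of miR-4787 had log2 levels of 8.14, 7.91 and 6.80 on day 3, 3.61, 3.46 and 4.23 on day 5, and 3.73, 3.05 and 3.44 on day 7. The 3p arm was at 5.89, 5.95 and 5.77, then 6.35, 6.38 and 6.32, then 6.74, 7.01 and 6.84. The 5p arm lay above the 3p arm in every day 3 library and below it in every later one. In log2 terms the 5p arm minus the 3p arm was 1.75 ± 0.64 on day 3, -2.58 ± 0.43 at day 5 and -3.46 ± 0.48 at day 7, with SDs of 3 libraries. The 5p arm fell by 4.21 to day 7 (SE 0.34, limma adjusted p = 1.38e-05) and the 3p arm rose by 0.99 (SE 0.10, limma adjusted p = 2.82e-05).

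**Figure D4:**
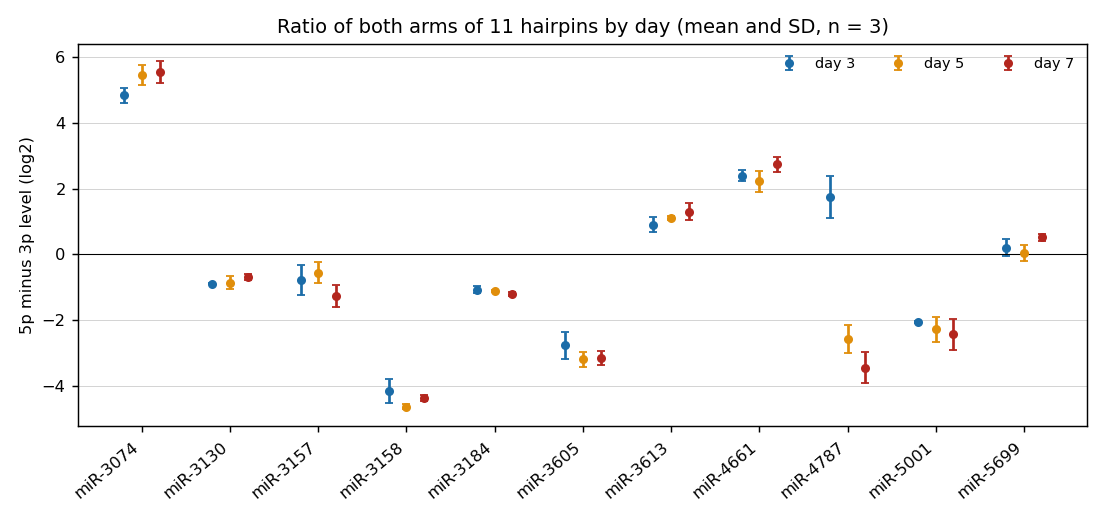
Log2 level of the 5p arm minus the 3p arm for the 11 hairpins with both arms among the members, as mean and SD of 3 libraries a day. miR-4787 crosses 0 after day 3, while the other 10 keep the sign of their means. For miR-3184 the 3p values are those of miR-423-5p.

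In the other 10 hairpins the ratio moved far less. For miR-3158 it was -4.16 ± 0.36, -4.64 ± 0.07 and -4.39 ± 0.09 on days 3, 5 and 7 (SD, n = 3), and for miR-3605 -2.78 ± 0.41, -3.20 ± 0.23 and -3.15 ± 0.21. miR-3074-5p, which covers 20 bases of miR-24-3p in reverse complement, exceeded its 3p arm by 4.85 ± 0.23, 5.47 ± 0.30 and 5.55 ± 0.32. Arms of miR-5699 stood close together, at 0.20 ± 0.25, 0.04 ± 0.24 and 0.51 ± 0.09. miR-24-3p stood 1.17 to 1.44 log2 units above miR-3074-5p in each library. The arms of miR-3158, and those of miR-3130, are reverse complements of each other over 20 bases. Whether rows with such overlaps held reads of the other strand was not tested.

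miR-3184-5p overlaps miR-423-3p in reverse complement over 21 bases, and its values were not those of that row. Whether it held reads of the other strand was not tested. Its levels were 10.94, 10.93 and 10.90 on day 3, 11.30, 11.40 and 11.32 on day 5, and 11.62, 11.67 and 11.57 on day 7, while miR-423-3p was 2.03 to 2.35 log2 units higher in each library. From day 3 to day 7 miR-3184-5p rose by 0.70 (SE 0.08, limma adjusted p = 7.14e-05) and miR-423-3p by 0.86. The step of miR-3184-5p from day 5 to day 7 was 0.28 on the deposited scale and turned to -0.21 on library totals and -0.06 when centred, and its call was lost without replicate 1 or 3 of day 5 or replicate 2 of day 7.

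The members differed in letters from rows numbered below 1000. The median share of G and C was 59.1% in 99 members and 45.5% in 327 rows numbered below 1000, and it was at least 65% in 27.3% of members and 5.5% of those rows. Mature sequences under 20 bases made up 15.2% of members and 0.306% of the others. More than 1 exact copy in the genome was found for 26.3% and 17.1%, and more than 10 copies for 1.01% and 3.36%. Among the members only miR-5585-3p had more than 10, with 683.

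The largest falls lay among the members richest in G and C. Among 27 members with at least 65% G and C, 11 fell and 5 rose from day 3 to day 7, with a median difference of -0.41. Leaving out those that are members through 1 day alone, 8 of 24 fell and 5 rose, with a median of -0.12. Of the 50 between 50% and 65%, 7 fell and 16 rose, with a median of 0.21, and of the 22 below 50%, 3 fell and 10 rose, with a median of 0.28. Of the 18 rows numbered below 1000 with at least 65% G and C, 1 fell and 13 rose, and their median was 0.41.

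Across 99 members the difference between days 7 and 3 went down with the share of G and C (Pearson's r = -0.44, Spearman's rho = -0.29). Across 327 rows numbered below 1000 it did not (r = 0.14, rho = 0.08). Without the members that passed through 1 day, which had to differ, r was -0.36 and rho -0.20 over 93 members. These points are rows of the same 9 libraries and not independent replicates. Runs of GGGG or CCCC stood in 7 of the 14 members with a sequence that fell at least 2-fold, in 16 of the other 85, and in 7.95% of rows numbered below 1000. The 7 hold miR-6743-5p, miR-10396b-3p and miR-4739, which are members through day 3 alone and had to fall. The part of base composition in the falls was not tested.

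**Figure D5:**
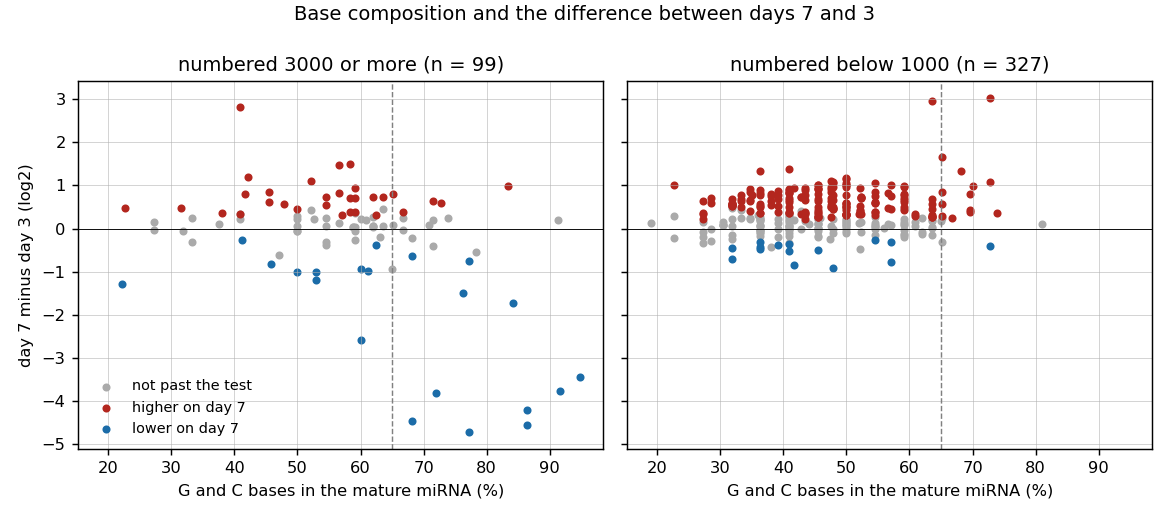
Day 7 minus day 3 (log2) against the share of G and C bases in the mature miRNA, 1 point a row with a sequence, with a dashed line at 65%. Blue points right of the line and below -3 are late-named members, and the right panel holds no blue point below -1.

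Some members held the letters of other noncoding RNAs. Searched in 9571 annotated transcripts, the whole mature sequence of 4 of 99 members (4.04%) lay in a ribosomal, mitochondrial, transfer or small nucleolar RNA, and of 1 of 327 rows numbered below 1000 (0.306%). Allowing 1 mismatch, which was searched for members only, added 7. The stretches of the other RNAs are shown in lower case with a base that differs from the member in capitals, and the changes are counted from 1 at the member's 5′ end, with the member's base first.
miR-10396b-3p in 45S pre-ribosomal RNA: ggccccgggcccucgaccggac
miR-4485-3p in mitochondrial 16S ribosomal RNA: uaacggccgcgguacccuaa
miR-4634 in 28S ribosomal RNA (G11C): cggcgcgaccCgcccgggg
miR-7704 in 28S ribosomal RNA (G19C): cggggucggcggcgacguC
miR-4454 in histidine transfer RNA (G2A): gAauccgagucacggcacca
miR-7977 in glycine transfer RNA (A6G): uucccGgccaacgcacca
miR-4448 in proline transfer RNA (C6G): ggcucGuuggucuaggggua
miR-12136 in mitochondrial serine transfer RNA: gaaaaagucauggaggcc
miR-3651 in SNORA84: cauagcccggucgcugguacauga
miR-5701 in SNORD43 (U2G): uGauugucacguucugauu

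All 4 members with letters of ribosomal RNA fell from day 3 to day 5 and stayed low. miR-4485-3p, which matches bases 893 to 912 of MT-RNR2, was at 7.47, 6.72 and 7.17 on day 3, 4.85, 4.39 and 4.93 on day 5, and 4.81, 4.63 and 4.18 on day 7. Day 3 stood above the later days, which overlapped. miR-10396b-3p, miR-4634 and miR-7704 had day 5 minus day 3 differences of -4.06, -3.22 and -2.21. The first of these is a member through day 3 alone and had to fall. miR-1268a and miR-1268b, which are not members, also match 45S pre-ribosomal RNA exactly. Neither was among the rows called lower at least 2-fold on day 7. RNA of the ribosome is the bulk of a cell's RNA, and the share of its fragments in these rows was not tested.

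Of the 4 members with letters of transfer RNA, miR-7977 and miR-4454 end in the CCA that is added to transfer RNAs after transcription, and their stretches were the last 18 and 20 bases. Sequences ending in CCA made up 5.05% of members and 0.306% of rows numbered below 1000. The other members with this ending, miR-4484, miR-4713-5p and miR-3529-3p, had no match in transfer RNA. miR-4448, which starts at the first base of proline transfer RNA, was at 4.65, 4.43 and 4.91 on day 3, 4.37, 4.60 and 4.33 on day 5 and 3.69, 3.83 and 3.63 on day 7. It fell by 0.95 to day 7 (SE 0.13, limma adjusted p = 0.000236). miR-12136 was 0.45 higher on day 7 than on day 3 on the deposited scale (limma adjusted p = 0.00173) and -0.06 on library totals.

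Members with letters of small nucleolar RNA moved little. miR-5701 was at 10.25, 10.34 and 10.17 on day 3 and at 10.62, 10.79 and 10.79 on day 7, a difference of 0.48 (limma adjusted p = 0.00144) that turned to -0.03 on library totals. miR-3651 differed by 0.38 (limma adjusted p = 0.0347) and by -0.12 on library totals, and its call was lost without replicate 1 or 3 of day 3 or replicate 2 or 3 of day 7. The last match, of miR-5585-3p, was to 2 RefSeq transcripts of unclassified RNA.

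By place, 75 of the 99 members lay in a gene on the same strand, 22 of them overlapping an exon, 12 lay only opposite a gene and 12 in no annotated gene. Of the 53 in introns, 16 rose and 10 fell between days 3 and 7, and of the 22 at exons 8 rose and 4 fell. Of the 12 in no gene, 2 rose and 5 fell, and of the 12 opposite a gene 5 rose and 2 fell. Of all 117 members 29.9% rose and 19.7% fell, and of all rows 49.9% and 8.47%. Members of each place moved both ways, and differences between places were not tested.

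Transcripts of the host genes were measured in the whole transcriptome libraries of days 3 and 5, as normalised read counts. Of 73 host genes on the same strand 58 passed the filter on low values, and 29 rose and 14 fell from day 3 to day 5 by limma. That is 74.1%, where 56.9% of all 20129 genes tested were called. In 13 pairs both host and member were called, and 10 of them moved the same way. The 13 were picked by both calls, and the directions of the other pairs were not counted. The 10 therefore do not show that members in general followed their hosts.

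PHC2 was at 2730, 3001 and 3171 normalised reads on day 3 and 6828 ± 206.7 (SD, n = 3) on day 5, and rose by 1.20 on the log2 scale (SE 0.09, limma adjusted p = 0.000235), where miR-3605-3p rose by 0.71. PFKFB3 rose by 0.93 (limma adjusted p = 0.0022) beside 0.74 for miR-3155a, and PKD1, the polycystin-1 gene, by 1.11 beside 0.70 for miR-6511b-3p, whose call was lost without replicate 2 of day 5. POLR2F, a subunit of RNA polymerase II, and its intronic miR-6820-3p were both lower, by -0.93 and -0.73. Members with nearly identical copies, as miR-6511b-3p has, may draw reads from other loci.

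In 3 pairs host and member moved in opposite directions. NEO1 went from 1051 ± 141.8 to 2576 ± 57.7 normalised reads (SD, n = 3), a rise of 1.30 (SE 0.12, limma adjusted p = 0.0004), where miR-12135 fell by 0.43, a call lost without replicate 1 of day 3 or replicate 3 of day 5. JAG2, which encodes a Notch ligand, rose by 1.34 where miR-6765-3p fell by 0.93. DOCK3 rose by 0.48, as did miR-4787-3p, where miR-4787-5p fell by 3.85. RIC8A, host of miR-6743-5p, differed by 0.26 and did not pass (SE 0.10, limma adjusted p = 0.062).

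The processing genes were also read on days 3 and 5. DROSHA was at 3413, 3454 and 3268 normalised reads on day 3 and 4232, 4167 and 4113 on day 5, and rose by 0.30 (SE 0.07, limma adjusted p = 0.0117). DICER1 fell by 0.32 (SE 0.07, limma adjusted p = 0.00928), from 5681 to 4560 reads on average. DBR1, the debranching enzyme, fell by 0.75 (SE 0.10, limma adjusted p = 0.00166), from 1011, 1121 and 1262 to 680, 637.7 and 695.8. DGCR8, the partner of DROSHA, and XPO5, the exporter of precursors, did not pass (limma adjusted p = 0.275 and 0.397). Transcripts do not measure the activity of these enzymes.

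Across all rows, each small RNA library correlated with the others of its day at 0.9945 to 0.9975, lowest for replicate 3 of day 3. Read totals of single small RNA libraries were not used here, as the table holds none, and the whole transcriptome libraries held 27470978 to 56689369 reads. Of 9 epithelial markers, EPCAM, CDH1, KRT8, KRT18, KRT19 and CDX2 passed the filter and CDX1, VIL1 and LGALS4 did not. From day 3 to day 5 CDH1 rose by 2.63 on the log2 scale, KRT19 by 1.98, KRT8 by 1.05, KRT18 by 0.93 and CDX2 by 0.44, and EPCAM differed by 0.00 (limma adjusted p from 0.0001 to 0.00889 for the first 5 and 0.982 for EPCAM). Among markers of other cells, PTPRC reached at most 2.14 normalised reads, COL1A2 26.9 and HBB 13.6, PECAM1 had no row, and COL1A1 rose by 1.12 (limma adjusted p = 0.000289), within 483.4 to 1156 reads. The part of these changes in the host gene results was not tested.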

How the data were processed

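Small RNA of whole cells was sequenced with the TruSeq kit. Per the study's methods the authors trimmed the reads with Cutadapt, mapped them to mature and hairpin miRNAs of GRCh37 and scaled them by TMM. The deposited values are log2 levels per mature miRNA. Their transformation is not given in the sources used here, they go below 0, and they do not give the reads of each library, for which the methods give a range of yields only. A limma (3.58.1) fit with a mean per day was run on the 567 rows at or above the level of 10 in 3 of 9 libraries, with Benjamini-Hochberg adjustment. Simulated 2-fold changes were recovered for 193 of 200 rows, with 5 false calls, in the day 7 against day 3 comparison of 567 rows.

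The whole transcriptome table holds a deposited normalised signal per gene, made by the authors with strand-specific mapping to hg38 and TMM. All values (100%) were whole multiples of 1 read within 0.01 reads or, for large counts, within a small share of the count. limma was run on log2(value + 1) for the 20129 genes reaching 10 in 3 or more of the 6 libraries, and edgeR on the recovered reads was an added alternative, which called 12280 genes where limma called 11450. Simulated 2-fold changes between days 3 and 5 were recovered for 126 of 200 genes among 20129, or 63%, with 8 false calls. Columns of fold changes and p-values by the authors were not used, and whole transcriptome libraries of day 7 were not analysed here.

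Named members were the 10 highest, the 8 largest rises and falls past the test without overlap in each comparison, those at the threshold, those with both arms, shared seeds or whole matches in another RNA. Members and lists were chosen with earlier results of these data known. Groups came from the labels. Sequences and loci are from RefSeq GRCh38.p14 and annotation from GENCODE. Replicate numbers did not pair the libraries (correlation of deviations from -0.08 to 0.12), so no block was fitted in the results above.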

Additional observations from a re-analysis of the deposited data

How the results depend on the processing

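The table gives no read total for each small RNA library, and its scale moved counts of calls between days 3 and 7 and between days 5 and 7 by over 1.5 times. Of 83 named calls, all alternatives gave 1281 values, of which 1154 kept direction and call, 113 kept the direction and lost the call, and 14 turned. The cause was not tested. Leaving out single libraries lost 17 named calls and turned 0. The 83 include calls of the 8 members that passed the level through 1 day. That rule fixed their direction from or to that day, so their holding adds no support. The counts were not made without them.

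Scaled to library totals, members higher and lower numbered 11 and 57 between days 3 and 7 and 4 and 58 between days 5 and 7, and rows numbered below 1000 numbered 80 and 161, 54 and 42 between days 3 and 5, and 55 and 149 between days 5 and 7. Centred on rows numbered below 1000, members numbered 14 and 44 between days 3 and 7 and 4 and 36 between days 5 and 7, and rows numbered below 1000 numbered 100 and 98 and then 75 and 71, with 35 lower between days 3 and 5. With a mean log2 value of at least 5, which keeps fewer rows, members numbered 18 and 8 between days 3 and 7, 12 and 5 between days 5 and 7, and 7 lower between days 3 and 5. Without a filter 19 rows numbered below 1000 were higher on day 5 than on day 3 and 6 lower on day 7 than on day 5, and with only the 6 libraries of both days 19 were higher on day 5. Members numbered 177 at a level of 5 and 75 at a level of 20.

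Leaving out 1 library, members higher on day 5 than on day 3 ranged from 9 (without replicate 2 of day 5) to 16, and members higher on day 7 than on day 5 from 13 (without replicate 1 of day 5 or 2 of day 7) to 30 (without replicate 3 of day 3). Rows numbered below 1000 ranged from 12 to 27 lower on day 7 than on day 3, from 15 to 30 higher and 9 to 53 lower on day 5 than on day 3, and from 6 to 16 lower on day 7 than on day 5, the highest counts of falls without replicate 3 of day 3.

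On library totals the day 7 minus day 3 difference (log2) turned to -0.056 for miR-12136, -0.186 for miR-3074-5p, -0.014 for miR-3613-5p, -0.119 for miR-3651, -0.028 for miR-5001-3p and -0.025 for miR-5701, and the day 7 minus day 5 difference to -0.171 for miR-12136, -0.120 for miR-3184-3p, -0.211 for miR-3184-5p and -0.243 for miR-5701. Centred, they were -0.047 for miR-3074-5p from day 3, and -0.021 for miR-12136, -0.062 for miR-3184-5p and -0.093 for miR-5701 from day 5.

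Replicate numbers did not pair the libraries, since 2 of 9 same-number pairs had a correlation of deviations over 0.1. With the replicate number as a block, 35 members were higher and 26 lower on day 7 than on day 3, 14 and 17 on day 5 than on day 3, and 22 and 12 on day 7 than on day 5, and 81 of 83 named calls held. Host genes with the block numbered 27 higher and 15 lower.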
